A study of Mus musculus with 9 samples.

Results

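Toll-like receptors and the proteins that pair with them or relay their signal were followed through injured mouse muscle as 10 genes: the receptors Tlr1, Tlr2, Tlr3, Tlr4, Tlr6, Tlr7 and Tlr9, the TLR4 partner Ly96 (MD-2), the adaptor Myd88 and the kinase Irak4. They were chosen by gene symbol. All 10 were found among the 55335 genes of the deposited tables, and all 10 passed the filter on low counts that left 18259 genes for testing. RNA came from leg muscles of WT c57b6l mice that had all been put through the hindlimb suspension ischemia model, so the controls carried the injury too. Of the 9 mice, 3 received aspirin together with a peptide hydrogel, 3 received aspirin, and 3 were left untreated as controls, with 1 library each. The labels give no dose, time after injury, sex or age, and neither uninjured muscle nor hydrogel without aspirin was analysed here.

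Toll-like receptors are innate immune receptors that recognise microbial molecules and molecules released from damaged tissue. TLR2, paired with TLR1 or TLR6, binds lipopeptides at the cell surface, and TLR4 with MD-2 binds lipopolysaccharide there, while TLR3 (double-stranded RNA), TLR7 (single-stranded RNA) and TLR9 (unmethylated CpG DNA) act in endosomes. All of these receptors except TLR3 signal through the adaptor MyD88, which recruits IRAK4 and leads to activation of NF-kB and the transcription of inflammatory cytokines. In muscle, macrophages and other leukocytes that enter after injury carry most of these receptors, and muscle fibres, endothelial cells and fibroblasts carry some.

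The promoter windows of Tlr2, Tlr6 and Myd88 are shown as examples. They come from the 5 genes that, in scaled counts, were lower in each aspirin plus hydrogel library than in each aspirin library, as described further on. Of the other 2 such genes, Tlr1 had a PU.1 core at -23 in 1 of its 2 windows, and the window of Irak4 held none of the motifs searched for. Each runs from 250 bases before to 50 bases after an annotated transcription start in RefSeq on mm10 (GRCm38), 5′ to 3′ on the gene's strand. Capitals mark matches to the NF-kB consensus in Tlr2 and to the core of the interferon-stimulated response element (GAAA, any 2 bases, GAAA), on either strand, in Tlr6 and Myd88.
Tlr2, chr3:83841559-83841858, minus strand: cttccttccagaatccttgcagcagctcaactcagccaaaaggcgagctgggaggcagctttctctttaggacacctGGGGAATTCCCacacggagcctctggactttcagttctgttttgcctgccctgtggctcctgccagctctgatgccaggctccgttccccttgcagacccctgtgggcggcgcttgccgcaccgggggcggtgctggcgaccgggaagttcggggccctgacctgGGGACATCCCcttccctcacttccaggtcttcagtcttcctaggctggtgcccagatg
Tlr6, chr5:64959117-64959416, minus strand: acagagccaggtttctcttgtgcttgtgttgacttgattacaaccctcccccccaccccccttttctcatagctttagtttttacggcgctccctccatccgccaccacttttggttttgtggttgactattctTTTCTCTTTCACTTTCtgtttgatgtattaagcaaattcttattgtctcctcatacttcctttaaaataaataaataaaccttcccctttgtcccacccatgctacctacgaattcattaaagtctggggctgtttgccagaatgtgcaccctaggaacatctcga
Myd88, chr9:119339969-119340268, minus strand: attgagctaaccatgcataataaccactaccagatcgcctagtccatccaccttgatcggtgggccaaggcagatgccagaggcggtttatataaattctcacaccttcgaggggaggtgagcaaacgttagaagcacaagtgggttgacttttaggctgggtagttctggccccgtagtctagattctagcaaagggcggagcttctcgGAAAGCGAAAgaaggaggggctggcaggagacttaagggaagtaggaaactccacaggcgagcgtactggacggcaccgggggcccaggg
In Tlr2 the NF-kB consensus matched at positions -173 and -172, which overlap, and at -8, counting the first base of the match from the annotated start. The Tlr6 window shown held a pair of overlapping interferon response cores at -116 and -110 on the opposite strand, and the Myd88 window held 1 at -40. The table holds a further Tlr6 window, at chr5:64959999-64960298, with none of the motifs. Promoter windows were in the table for 7 of the 10 members, and 9 windows were searched on both strands. The NF-kB consensus was in windows of 2 members (Tlr2 and Tlr3), against 8.46% of all 32851 windows. The interferon response core was in windows of 2 members (Tlr6 and Myd88), against 3.44% of all windows. The PU.1 core GAGGAA was in windows of 2 members (Tlr1 and Tlr9), against 28.3% of all windows. These matches describe the letters in the windows and were not tested for binding.

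The libraries held 32197791 to 48170537 counts. Levels are given as CPM, the counts divided by the scaled library size. All 9 muscle fibre markers were abundant, among them Acta1 at 5457 to 42453 CPM and Ckm at 3107 to 38723 CPM. A pair of libraries stood apart. Aspirin replicate 1 had a score of -156 on principal component 1 (50.5% of the variance, from 14626 genes) and a summed muscle marker level of 17625 CPM against 83930 to 261439 CPM in the other 8 libraries. Aspirin plus hydrogel replicate 3 scored 96.9 and had the highest muscle marker sum, while the remaining libraries scored between -50.2 and 39.5. In bulk RNA, fewer cells of a type and less RNA of a gene per cell cannot be told apart.

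On a per-length scale Myd88 was the most abundant of the 10 genes. Its deposited FPKM (fragments scaled by transcript length and library size) had a median of 5.29 over the 9 libraries, with a range of 2.18 to 16.3, and it ranked first in 8 libraries. The medians of the others, in descending order, were 2.94 FPKM for Tlr2, 2.68 for Tlr1, 1.59 for Tlr7, 1.34 for Ly96, 1.29 for Irak4, 1.18 for Tlr4, 0.905 for Tlr6, 0.819 for Tlr3 and 0.381 for Tlr9. Myd88 exceeded Tlr2 in 9 of 9 libraries and Tlr3 exceeded Tlr9 in 8 of 9. The neighbours in between exchanged places: Tlr2 exceeded Tlr1 in 6 libraries, Tlr1 exceeded Tlr7 in 5, Tlr7 exceeded Ly96 in 6, Ly96 exceeded Irak4 in 4, Irak4 exceeded Tlr4 in 4, Tlr4 exceeded Tlr6 in 7 and Tlr6 exceeded Tlr3 in 5. Tlr9 was lowest in 7 libraries, with a range of 0.121 to 2.01 FPKM.

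**Figure D1:**
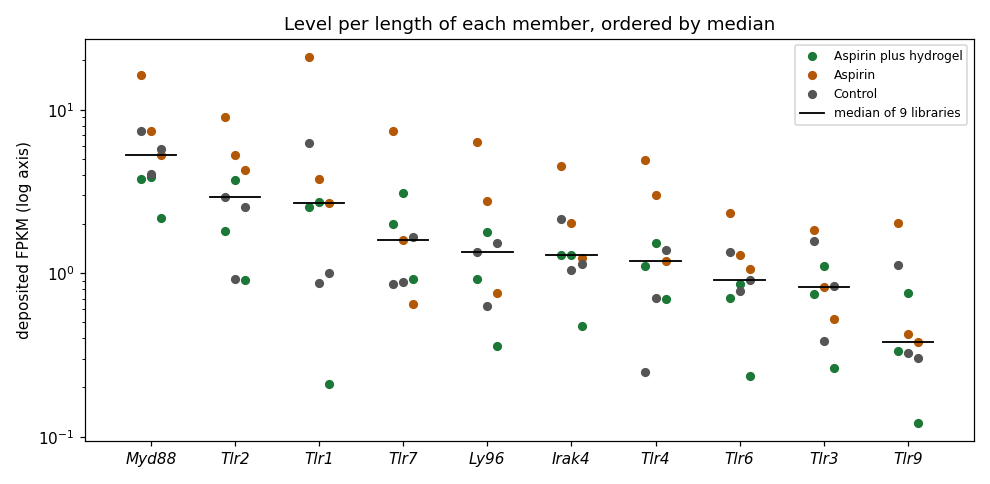
Deposited FPKM of each gene in each of the 9 libraries, on a log axis, with genes in order of their median; each point is 1 library, coloured by group, and the line is the median of the 9 libraries. Myd88 lies highest at a median of 5.29 and Tlr9 lowest at 0.381, and the genes between them overlap.

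Taken over the 10 genes, 9 had a higher fitted level in aspirin than in control muscle, the exception being Tlr3. Their median log2 fold change was 0.76, beside 0.05 over all 18259 genes, of which 54% were higher. None reached the adjusted threshold of 0.05 with edgeR, by which 0% of all genes were called. With an unadjusted p under 0.05, 2 members were higher (Tlr2 and Tlr4), against 3.09% of all genes. DESeq2 called 0 members and 0.404% of the 20313 genes to which it gave an adjusted p. Without Aspirin replicate 1, 7 members remained higher and the median was 0.26, with Tlr3, Tlr7 and Tlr9 lower.

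All 10 members had a lower fitted level in aspirin plus hydrogel than in aspirin. Their median log2 fold change was -0.96, beside -0.05 over all genes, of which 53.3% were lower. No member passed the adjusted threshold in edgeR, by which 0% of all genes were called, while 4 (Myd88, Tlr6, Tlr2 and Irak4) were lower with an unadjusted p under 0.05, against 7.61% of all genes. DESeq2 called 0 members and 0.77% of the 19101 genes to which it gave an adjusted p. Without Aspirin replicate 1, 3 members were higher instead of 0 (Tlr3, Tlr7 and Tlr9) and the median was -0.68; without Aspirin plus hydrogel replicate 3, 2 were higher (Tlr3 and Tlr7) and the median was -0.77.

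Against control, 3 members were higher in aspirin plus hydrogel (Tlr2, Tlr4 and Tlr7) and 7 were lower. The median log2 fold change was -0.24, beside -0.03 over all genes, of which 47.1% were higher. Again 0 members and 0% of all genes were called by edgeR, and 1 member (Myd88) was lower with an unadjusted p under 0.05, against 2.18% of all genes. DESeq2 called 0 members and 0.0413% of the 31450 genes to which it gave an adjusted p. The balance turned with single libraries: 6 members were higher without Control replicate 1 (median 0.16) and 7 without Aspirin plus hydrogel replicate 3 (median 0.14), while 2 were higher without Control replicate 2 (median -0.50) or Aspirin plus hydrogel replicate 2 (median -0.61). The comparisons share libraries with each other in pairs, so their directions are not independent.

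**Figure D2:**
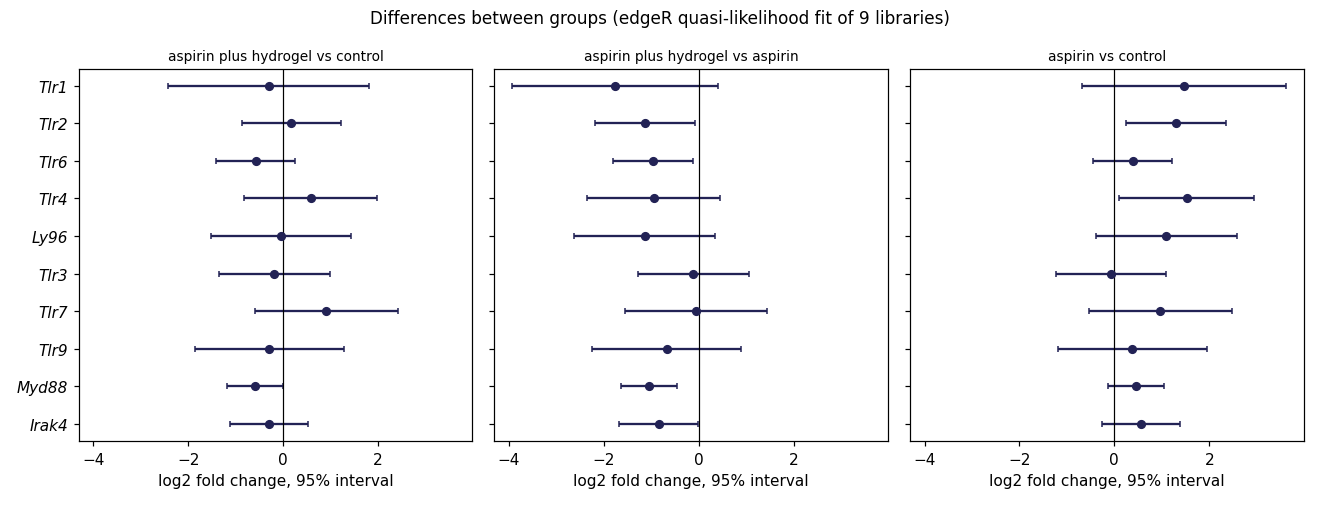
Log2 fold change of each gene in the 3 comparisons from edgeR's fit; points are the estimates, horizontal lines are 95% intervals and the vertical line marks 0. All 10 genes lie below 0 in aspirin plus hydrogel against aspirin, and 9 of 10 lie above 0 in aspirin against control.

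Among the surface receptors, Tlr2 was measured at 6.29, 12.7 and 4.37 CPM in aspirin plus hydrogel, at 18.7, 16.3 and 16.2 CPM in aspirin, and at 8.0, 3.31 and 9.42 CPM in control. In CPM the aspirin libraries agreed closely with each other and lay above every library of both other groups, which overlapped. In FPKM the aspirin libraries spread more, at 8.97, 5.29 and 4.28 in replicates 1, 2 and 3, and still lay above all others. Its mean was 7.77 ± 4.34 CPM in aspirin plus hydrogel, 17.1 ± 1.44 CPM in aspirin and 6.91 ± 3.20 CPM in control (SD, n = 3 each). The log2 fold change was 1.30 ± 0.47 (SE) in aspirin against control, with a 95% interval of 0.25 to 2.36 and an adjusted p of 0.753 by edgeR. It was -1.13 ± 0.47 in aspirin plus hydrogel against aspirin (edgeR adjusted p = 0.453), and in aspirin plus hydrogel against control 0.17 ± 0.46 (edgeR adjusted p = 0.989). Leaving out single libraries kept the aspirin against control value between 0.97 and 1.60. The gene, on chromosome 3 at 83836272 to 83841767 (mm10, minus strand), encodes the shared subunit of the lipopeptide receptors.

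Tlr1 and Tlr6 encode the alternative partners of TLR2, for triacylated and diacylated lipopeptides. Tlr1 was measured at 9.87, 10.4 and 1.13 CPM in aspirin plus hydrogel, at 48.5, 12.8 and 11.3 CPM in aspirin, and at 18.8, 3.46 and 4.16 CPM in control. It had the widest spread of the 10 genes, with a ratio of 42.7 between its highest library (Aspirin replicate 1) and its lowest (Aspirin plus hydrogel replicate 3). All aspirin libraries lay above all aspirin plus hydrogel libraries, although the values 10.4 and 11.3 CPM nearly met. Its log2 fold change was 1.46 ± 0.95 in aspirin against control (edgeR adjusted p = 0.774), and became 0.43 without Aspirin replicate 1 and 2.66 without Control replicate 1. Against aspirin, aspirin plus hydrogel gave -1.76 ± 0.96 (edgeR adjusted p = 0.487), which became -0.76 without Aspirin replicate 1. Aspirin plus hydrogel against control gave -0.30 ± 0.94 (edgeR adjusted p = 0.989).

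Tlr6 was measured at 3.07, 3.63 and 1.40 CPM in aspirin plus hydrogel, at 6.05, 4.94 and 4.94 CPM in aspirin, and at 4.51, 3.46 and 4.19 CPM in control. The aspirin libraries lay above all others, and the other groups overlapped only through the control library at 3.46 CPM. The difference in aspirin plus hydrogel against aspirin was -0.97 ± 0.37 in log2 (unadjusted p = 0.0281, edgeR adjusted p = 0.453). It was 0.39 ± 0.37 in aspirin against control (edgeR adjusted p = 0.832) and -0.58 ± 0.37 in aspirin plus hydrogel against control (edgeR adjusted p = 0.987), which was -0.30 without Aspirin plus hydrogel replicate 3. Tlr1 and Tlr6 are neighbours on chromosome 5 (64924679 to 64933563 and 64952031 to 64960097, mm10, both on the minus strand) with near-identical stretches. Of the 50-base windows of their exons, 15.4% of Tlr1's and 12.3% of Tlr6's also occur in other genes, mainly in each other, so the split of reads between them is uncertain.

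TLR4 and its partner MD-2 (Ly96) form the lipopolysaccharide receptor. Tlr4 was measured at 7.18, 9.70 and 6.14 CPM in aspirin plus hydrogel, at 19.1, 17.1 and 8.26 CPM in aspirin, and at 1.28, 4.67 and 9.51 CPM in control. Aspirin replicate 3, at 8.26 CPM, lay among the libraries of the other groups, and Control replicate 1 was the lowest of the 9 at 69 counts. The log2 fold change in aspirin against control was the largest of the 10 members at 1.53 ± 0.63, with a 95% interval of 0.11 to 2.95, an unadjusted p of 0.0379 and an adjusted p of 0.753 by edgeR. It was 1.06 without Control replicate 1 and 2.35 without Control replicate 3. With aspirin plus hydrogel, Tlr4 stood at -0.95 ± 0.62 against aspirin (edgeR adjusted p = 0.534) and at 0.58 ± 0.62 against control (edgeR adjusted p = 0.987), the last being 0.12 without Control replicate 1 and 1.38 without Control replicate 3. Tlr4 lies on chromosome 4 at 66827584 to 66930284 (mm10, plus strand).

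Ly96 was measured at 1.11, 2.09 and 0.601 CPM in aspirin plus hydrogel, at 4.47, 2.90 and 1.00 CPM in aspirin, and at 1.26, 0.759 and 1.92 CPM in control. The groups overlapped in every comparison. Its log2 fold change was 1.09 ± 0.66 in aspirin against control (edgeR adjusted p = 0.768), -1.14 ± 0.66 in aspirin plus hydrogel against aspirin (edgeR adjusted p = 0.501) and -0.05 ± 0.65 in aspirin plus hydrogel against control (edgeR adjusted p = 0.998). Without Aspirin replicate 1 the value was 0.57 in aspirin against control and -0.63 in aspirin plus hydrogel against aspirin, where it was -1.72 without Aspirin plus hydrogel replicate 2. Ly96 lies on chromosome 1 at 16688051 to 16709611 (mm10, plus strand).

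The endosomal receptors did not separate any pair of groups. Tlr3, which signals through TRIF rather than MyD88, was measured at 4.52, 6.59 and 2.20 CPM in aspirin plus hydrogel, at 6.58, 4.36 and 3.46 CPM in aspirin, and at 7.37, 2.39 and 5.38 CPM in control. Its mean was 4.44 ± 2.19 CPM in aspirin plus hydrogel, 4.80 ± 1.61 CPM in aspirin and 5.05 ± 2.51 CPM in control (SD, n = 3 each). The 95% interval of its log2 fold change ran from -1.24 to 1.09 in aspirin against control. Differences within that range, in either direction, were compatible with these data. The estimate itself was -0.07 ± 0.51 there, -0.11 ± 0.52 in aspirin plus hydrogel against aspirin and -0.19 ± 0.52 in aspirin plus hydrogel against control (edgeR adjusted p of 0.980, 0.933 and 0.989 in that order). The first of these turned to 0.20 with library size scaling alone. Tlr3 lies on chromosome 8 at 45395665 to 45411080 (mm10, minus strand) and shares 381 exonic bases with the antisense gene Gm45542. Whether counting used strand is not stated, so reads from overlapping genes cannot be told apart.

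Tlr7 was measured at 9.51, 14.4 and 5.97 CPM in aspirin plus hydrogel, at 21.0, 6.68 and 3.40 CPM in aspirin, and at 3.20, 4.29 and 8.46 CPM in control. The aspirin libraries spanned nearly the whole range, from Aspirin replicate 1 at the top to Aspirin replicate 3 near the bottom. The fold change in log2 was 0.97 ± 0.67 in aspirin against control (edgeR adjusted p = 0.782) and 0.91 ± 0.67 in aspirin plus hydrogel against control (edgeR adjusted p = 0.987), the last being 0.54 without Aspirin plus hydrogel replicate 2 and 1.41 without Control replicate 3. Aspirin plus hydrogel and aspirin differed by -0.06 ± 0.66 (edgeR adjusted p = 0.974), which became 0.98 without Aspirin replicate 1. Aspirin against control became -0.07 without that library. Tlr7 lies on the X chromosome at 167304929 to 167330558 (mm10, minus strand).

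Tlr9, the member with the lowest median FPKM, was measured at 1.35, 2.99 and 0.701 CPM in aspirin plus hydrogel, at 4.85, 1.52 and 1.69 CPM in aspirin, and at 3.53, 1.34 and 1.31 CPM in control. Each group had 1 library well above its other 2. The log2 fold change was 0.38 ± 0.69 in aspirin against control (edgeR adjusted p = 0.918), -0.68 ± 0.70 in aspirin plus hydrogel against aspirin (edgeR adjusted p = 0.674) and -0.29 ± 0.69 in aspirin plus hydrogel against control (edgeR adjusted p = 0.988). The same 3 libraries were highest for the summed B cell markers Cd79a, Cd79b, Ms4a1 and Pax5, at 65.9 CPM in Aspirin plus hydrogel replicate 2, 752 CPM in Aspirin replicate 1 and 250.4 CPM in Control replicate 1. The remaining 6 libraries had B cell sums from 0.734 to 47.6 CPM, and 2 of the 4 markers were at 0 counts in Aspirin replicate 2 and in Control replicate 3. The part of B cells in the levels of Tlr9, or of Tlr1, which was also highest in Aspirin replicate 1 and Control replicate 1, was not tested. Tlr9 lies on chromosome 9 at 106222598 to 106226883 (mm10, plus strand).

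Downstream of the receptors, Myd88 had the lowest unadjusted p of the 10 genes in the test of any difference among the 3 groups. It was measured at 11.3, 11.3 and 8.94 CPM in aspirin plus hydrogel, at 29.0, 19.4 and 17.1 CPM in aspirin, and at 17.2, 12.3 and 18.3 CPM in control. Every aspirin plus hydrogel library lay below every aspirin and every control library, while the aspirin and control libraries overlapped between 17.1 and 18.3 CPM. Its mean was 10.5 ± 1.37 CPM in aspirin plus hydrogel, 21.8 ± 6.30 CPM in aspirin and 15.9 ± 3.18 CPM in control (SD, n = 3 each). Against aspirin, aspirin plus hydrogel gave a log2 fold change of -1.05 ± 0.26, with a 95% interval of -1.65 to -0.45 and an unadjusted p of 0.00323. The adjusted p was 0.453 by edgeR and 0.0794 by DESeq2, so it missed the threshold by either tool, and leaving out single libraries kept the value between -1.23 and -0.79. Against control, aspirin plus hydrogel gave -0.60 ± 0.26 (unadjusted p = 0.0490, edgeR adjusted p = 0.987), and aspirin gave 0.45 ± 0.26 (edgeR adjusted p = 0.765), which was 0.19 without Aspirin replicate 1. Myd88 lies on chromosome 9 at 119335934 to 119341411 (mm10, minus strand), and 290 of its exonic bases overlap Acaa1a on the opposite strand.

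Irak4, the kinase recruited by MyD88, was measured at 7.50, 7.40 and 3.87 CPM in aspirin plus hydrogel, at 15.6, 10.4 and 7.77 CPM in aspirin, and at 9.76, 6.21 and 7.04 CPM in control. The aspirin plus hydrogel libraries lay below all aspirin libraries, by a margin of 7.50 against 7.77 CPM, and overlapped control. The log2 fold change was -0.85 ± 0.36 in aspirin plus hydrogel against aspirin (unadjusted p = 0.0449, edgeR adjusted p = 0.454). It was 0.56 ± 0.36 in aspirin against control (edgeR adjusted p = 0.774) and -0.29 ± 0.36 in aspirin plus hydrogel against control (edgeR adjusted p = 0.987). Without Aspirin replicate 1 the aspirin against control value was 0.23 and that of aspirin plus hydrogel against aspirin -0.54. Aspirin plus hydrogel against control ran from -0.45 without Control replicate 2 to -0.06 without Aspirin plus hydrogel replicate 3. Irak4 lies on chromosome 15 at 94543643 to 94581815 (mm10, plus strand), and 395 of its exonic bases overlap Twf1.

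**Figure D3:**
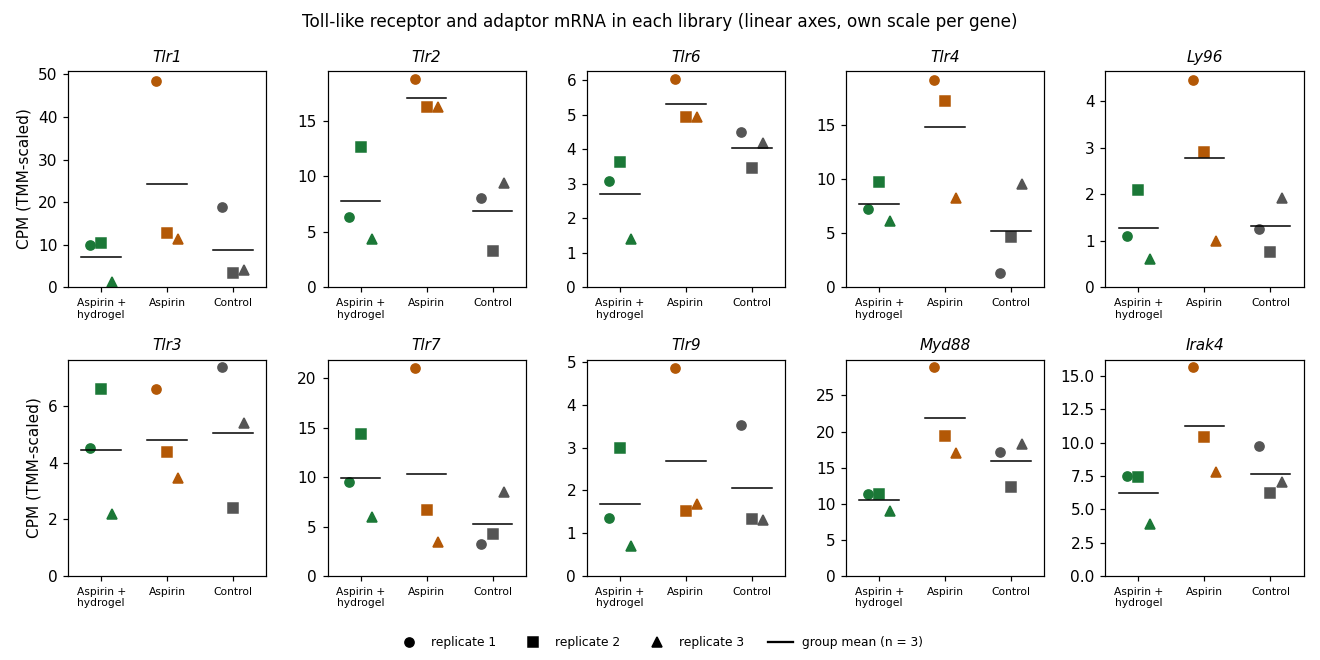
CPM of each gene in each library, by group (aspirin plus hydrogel, aspirin, control), on linear axes with a scale of their own for each gene; each point is 1 mouse, its shape gives the replicate number, and the line is the group mean (n = 3). The aspirin points of Tlr2 lie between 16.2 and 18.7 CPM, above all others, and the aspirin plus hydrogel points of Myd88 lie between 8.94 and 11.3 CPM, below all others.

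By separation of libraries, 2 of 10 members (Tlr2 and Tlr6) lay wholly higher in aspirin than in control, against 5.54% of all genes. Lying wholly lower in aspirin plus hydrogel than in aspirin were 5 of 10 (Tlr1, Tlr2, Tlr6, Myd88 and Irak4), against 8.75% of all genes. Myd88 alone, 1 of 10, lay wholly lower in aspirin plus hydrogel than in control, against 6.3% of all genes. These separations are in CPM, and some were lost in FPKM. There Tlr6 overlapped between aspirin and control (1.05 in Aspirin replicate 3, 1.34 in Control replicate 1). Tlr1 overlapped between aspirin plus hydrogel and aspirin (2.73 in Aspirin plus hydrogel replicate 2, 2.68 in Aspirin replicate 3). Irak4 did so too, at 1.30 and 1.24 in the same libraries. The other separations held in FPKM. The test of any difference among the 3 groups gave unadjusted p-values of 0.0104 for Myd88 and 0.0337 for Tlr2, and 0.0787 or more for the other 8 (adjusted p from 0.659 to 0.982 by edgeR). By that test 6.97% of all genes had an unadjusted p under 0.05.

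Library by library, the members tended to be high or low in common. Aspirin replicate 1 held the highest level of 9 members, the exception being Tlr3, which was highest in Control replicate 1. Aspirin plus hydrogel replicate 3 held the lowest level of 7, while Control replicate 1 was lowest for Tlr4 and Tlr7 and Control replicate 2 for Tlr2. After each gene was centred on its own mean of log2 CPM, the 10 members averaged -0.15, 0.34 and -1.12 in the aspirin plus hydrogel libraries, 1.26, 0.44 and -0.01 in the aspirin libraries, and -0.05, -0.72 and 0.01 in the control libraries. The groups overlapped on this scale: the lowest aspirin average, in Aspirin replicate 3, lay just below the highest control average, in Control replicate 3.

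**Figure D4:**
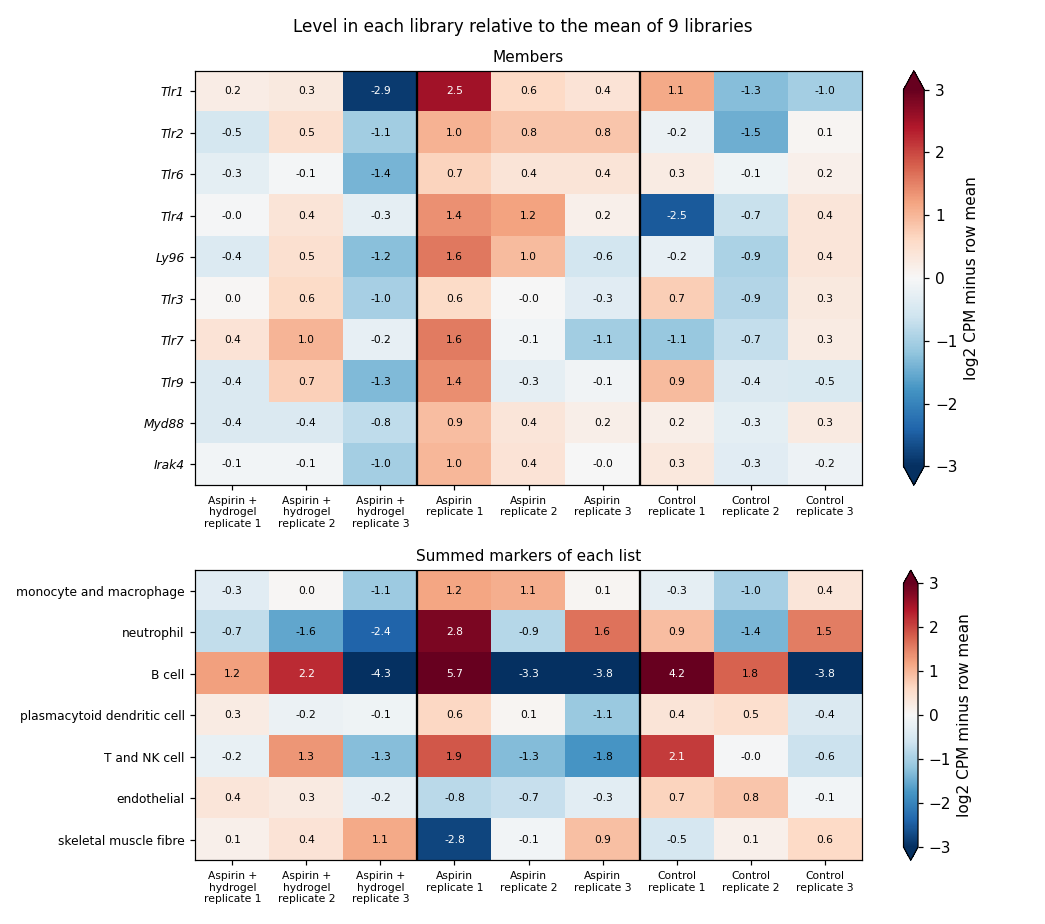
Log2 CPM of each gene (upper panel) and of summed cell type markers (lower panel) in each library, relative to the mean of the 9 libraries in its row; colours saturate at 3 and the value stands in each cell. Aspirin replicate 1 is above the mean for all 10 genes and Aspirin plus hydrogel replicate 3 and Control replicate 2 are above it for 0 of 10.

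Among the members, Myd88 and Irak4 varied most alike over the 9 libraries, with a root mean square difference of 0.25 between their centred log2 CPM values. Tlr6 was close to both, at 0.26 from Irak4 and 0.29 from Myd88. The least alike were Tlr1 and Tlr4 at 1.64 and Tlr1 and Tlr7 at 1.42. This difference is not scaled to each gene's spread, so genes that vary little lie near many genes. Its median against 13169 other genes was 0.65 for Myd88, 0.67 for Irak4 and 0.71 for Tlr6. For Tlr7, Tlr4 and Tlr1 that median was 0.99, 1.17 and 1.52. Among 13169 other genes averaging at least 1 CPM, the nearest to Tlr2 were Pirb, Clec4a1 and Lilrb4a at 0.19 to 0.26. Nearest to Tlr9 were Fmnl1, Cxcr3 and Csk at 0.23 to 0.25, and to Ly96 Gla, Tlr8 and Soat1 at 0.28 to 0.29. For Myd88 they were Trmt10a, Sec61a1 and Rpsa (0.13 to 0.15), for Irak4 Nt5c, Skap2 and Tmem138 (0.13 to 0.14) and for Tlr6 Ifnar2, Lipo3 and S100a11 (0.15 to 0.16). For Tlr4 they were more distant, with Per2, Utp23 and Sertad4 at 0.60 to 0.62. The nearest were Vav1, Brca1 and Syce2 for Tlr1 (0.44 to 0.47), Ass1, Cap1 and Dbnl for Tlr3 (0.27 to 0.29), and Tmsb15l, Fmo2 and Baz2b for Tlr7 (0.45 to 0.49). The mean profile of the 10 members was nearest to Lilr4b, Shtn1, Dnase2a, Efhd2 and Unc93b1, the last of which encodes the chaperone that carries endosomal Toll-like receptors out of the endoplasmic reticulum.

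Markers of some cell types, leukocytes and others, varied alongside the members and those of others did not. The summed level of 12 monocyte and macrophage markers, among them Csf1r and Adgre1, was 548 to 1190 CPM in aspirin plus hydrogel, 1212 to 2630 CPM in aspirin and 584 to 1495 CPM in control. In aspirin against control 11 of the 12 were higher (median log2 fold change 0.87), and in aspirin plus hydrogel against aspirin 0 of 12 were higher (median -1.06). Of 10 neutrophil markers, 9 were tested and all 9 were lower in aspirin plus hydrogel than in aspirin (median -3.23). Their sums were 11 to 34.8 CPM in aspirin plus hydrogel, 32.3 to 413 CPM in aspirin and 22.5 to 169 CPM in control, and the defining marker Ly6g was at 0 counts in 4 of the 9 libraries. Dendritic cell markers were higher in 1 of 6 cases in aspirin against control (median -0.48) and in 4 of 6 in aspirin plus hydrogel against aspirin (median 0.13), and T and NK cell markers in 3 of 5 (median 0.02) and 2 of 5 (median -0.16). Plasmacytoid dendritic cell markers were higher in 2 of 5 (median -0.11) and 3 of 5 (median 0.01) in these comparisons. The last of these markers, whose cells carry TLR7 and TLR9, summed to 52.1 to 70.0 CPM in aspirin plus hydrogel, 27.3 to 90.6 CPM in aspirin and 43.3 to 83.4 CPM in control, and Siglech was at 0 in Control replicate 3. Endothelial markers, Cdh5 among them, summed to 236 to 361 CPM in aspirin plus hydrogel, 160 to 224 CPM in aspirin and 263 to 496 CPM in control. Endothelial markers were higher in 0 of 5 cases in aspirin against control (median -0.89). In aspirin plus hydrogel against aspirin 5 of 5 were higher (median 0.53). For fibroblast and fibro-adipogenic markers these counts were 4 of 5 (median 0.26) and 0 of 5 (median -0.57). For B cell markers they were 4 of 4 (median 1.43) and 0 of 4 (median -2.97), and for muscle fibre markers 1 of 9 (median -0.20) and 9 of 9 (median 0.69). The B cell sum in aspirin was high in replicate 1 alone, at 752, 1.38 and 1.03 CPM. It was 32.8, 65.9 and 0.734 CPM in aspirin plus hydrogel and 250, 47.6 and 1.02 CPM in control. The part of these cell types in the members' levels was not tested.

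Set against the macrophage marker sum, the ratio of highest to lowest of the 9 libraries was smaller than in CPM for 9 of 10 members, the exception being Tlr3, against 15.7% of 16781 genes above 0 in every library. For Ly96 it was 2.12 per macrophage marker level and 7.43 in CPM. Within groups this did not always hold: among the aspirin libraries the ratio for Tlr2 was 2.02 per macrophage marker level and 1.16 in CPM, and for Myd88 it was larger in each of the 3 groups. Per 1000 CPM of macrophage markers, Tlr2 stood at 6.87, 10.6 and 7.97 CPM in aspirin plus hydrogel, at 7.12, 6.62 and 13.4 CPM in aspirin, and at 8.34, 5.66 and 6.31 CPM in control, and the groups overlapped. Tlr7 stood at 10.4, 12.1 and 10.9 CPM per 1000 in aspirin plus hydrogel, at 8.0, 2.72 and 2.81 in aspirin and at 3.33, 7.34 and 5.66 in control, with aspirin plus hydrogel above both other groups. On this scale, 1.47% of all genes lay wholly higher in aspirin plus hydrogel than in control, against 1 of 10 members (Tlr7). Between aspirin plus hydrogel and aspirin, 35.5% of all genes lay wholly higher in aspirin plus hydrogel, against 3 of 10 members (Tlr3, Tlr4 and Tlr7). Tlr3 alone lay wholly lower in aspirin than in control, at 2.5, 1.77 and 2.85 CPM per 1000 in aspirin and 7.69, 4.09 and 3.60 CPM per 1000 in control, as did 15.2% of all genes.

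**Figure D5:**
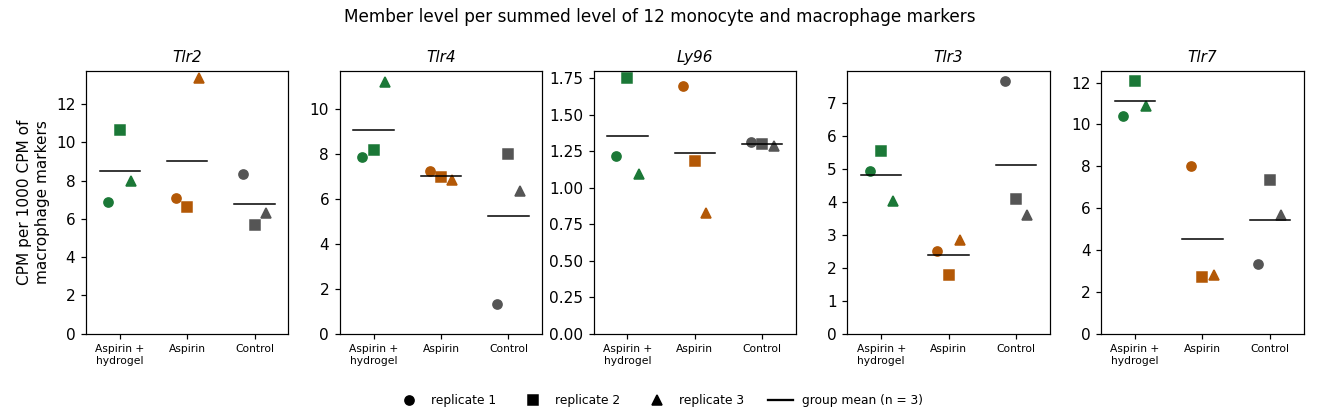
CPM of Tlr2, Tlr4, Ly96, Tlr3 and Tlr7 per 1000 CPM of summed monocyte and macrophage markers, by group, on linear axes; each point is 1 mouse, its shape gives the replicate number, and the line is the group mean (n = 3). The aspirin plus hydrogel points of Tlr7 lie between 10.4 and 12.1, above the other libraries, while those of Tlr2 overlap both other groups.

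The wider pathway was followed through 72 genes in 8 lists, of which 70 were tested, and 0 of these passed the adjusted threshold in edgeR in any comparison. In aspirin against control 48 of 70 were higher (median log2 fold change 0.35), beside 54% of all genes. The counts were 17 of 70 higher (median -0.70) in aspirin plus hydrogel against aspirin, beside 46.7% of all genes. In aspirin plus hydrogel against control they were 16 of 70 (median -0.20), beside 47.1% of all genes. The same shares of all genes apply to each list that follows. The 5 other Toll-like receptors were higher in aspirin than in control in 5 of 5 cases (median 0.90). Among them Tlr8, an endosomal RNA receptor in humans, had 1.48 ± 0.56 and Tlr13, the mouse sensor of bacterial ribosomal RNA, 1.29 ± 0.71 (edgeR adjusted p of 0.753 and 0.761). Tlr8 and Tlr13 in aspirin plus hydrogel against aspirin had -1.09 ± 0.55 and -1.31 ± 0.71 (edgeR adjusted p of 0.468 and 0.487).

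Co-receptors and chaperones were higher in aspirin than in control in 7 of 9 cases (median 0.68) and lower in aspirin plus hydrogel than in aspirin in 8 of 9 (median -0.70). Cd14, which hands lipopolysaccharide to TLR4, was measured at 8.68, 8.22 and 2.80 CPM in aspirin plus hydrogel, at 43.8, 18.8 and 17.6 CPM in aspirin, and at 9.13, 6.01 and 19.8 CPM in control. All aspirin plus hydrogel libraries of Cd14 lay below all aspirin libraries, with a log2 fold change of -2.02 ± 0.60 (unadjusted p = 0.00824, edgeR adjusted p = 0.453). Unc93b1 had -0.92 ± 0.46 and Cd180, a TLR4-related receptor of B cells and myeloid cells, -0.70 ± 0.85 in the same comparison (edgeR adjusted p of 0.466 and 0.722).

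Of the 5 other adaptors, 3 were higher in aspirin than in control (median 0.30) and 1 was higher in aspirin plus hydrogel than in aspirin (median -0.27). That 1 was Tirap, the bridge between TLR2 or TLR4 and MyD88, at 14.4, 20.8 and 38.3 CPM in aspirin plus hydrogel, 9.90, 11.3 and 23.4 CPM in aspirin and 9.66, 10.7 and 16.1 CPM in control. It had a log2 fold change of 1.01 ± 0.45 in aspirin plus hydrogel against control (unadjusted p = 0.0495, edgeR adjusted p = 0.987), and these groups overlapped. Ticam1, which encodes the TLR3 adaptor TRIF, had -0.31 ± 0.21 there (edgeR adjusted p = 0.987).

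The 16 kinases and ubiquitin ligases showed no common direction, with 8 higher in aspirin than in control (median 0.01) and 7 higher in aspirin plus hydrogel than in aspirin (median -0.04). Irak1, a substrate of IRAK4, had a log2 fold change of 0.04 ± 0.30 in aspirin plus hydrogel against aspirin, and the ubiquitin ligase Traf6 had -0.06 ± 0.21 (edgeR adjusted p of 0.958 and 0.904).

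Among 10 brakes of the pathway, 5 were higher in aspirin than in control (median -0.01) and 4 in aspirin plus hydrogel than in aspirin (median -0.44). Irak3, an inactive IRAK that restrains the signal in macrophages, was measured at 6.10, 8.92 and 7.71 CPM in aspirin plus hydrogel, at 15.7, 11.7 and 15.8 CPM in aspirin, and at 8.24, 8.22 and 8.32 CPM in control. The aspirin libraries lay above all others, as they did for Tlr2, with 0.80 ± 0.23 in aspirin against control (unadjusted p = 0.00663, edgeR adjusted p = 0.753) and -0.93 ± 0.23 in aspirin plus hydrogel against aspirin (unadjusted p = 0.00291, edgeR adjusted p = 0.453). Tollip, another inhibitor, had 0.25 ± 0.23 and the NF-kB inhibitor Nfkbia -0.35 ± 0.40 in the last comparison (edgeR adjusted p of 0.635 and 0.710).

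Of 9 transcription factors, 6 were higher in aspirin than in control (median 0.25) and 2 in aspirin plus hydrogel than in aspirin (median -0.38). Irf7, which acts below TLR7 and TLR9, had 0.12 ± 0.55 in aspirin plus hydrogel against aspirin (edgeR adjusted p = 0.933). The tissue-derived ligands were higher in aspirin than in control in 6 of 6 cases (median 0.47) and lower in aspirin plus hydrogel than in aspirin in 6 of 6 (median -2.05). S100a8, a calprotectin subunit abundant in neutrophils, had -3.89 ± 1.16 there, while Hmgb1, a nuclear protein released by dying cells, had -0.18 ± 0.30 (edgeR adjusted p of 0.453 and 0.791). Both S100a8 and S100a9 are in the ligand list and in the neutrophil marker list, so the results of these lists are not independent. In aspirin plus hydrogel against aspirin, DESeq2 called S100a8 (adjusted p = 0.0114) and the matrix protein gene Tnc (adjusted p = 0.0160). It called 0.77% of the 19101 genes given an adjusted p. There it also called 3 of the 9 tested neutrophil markers, S100a8 among them, and 2 of 12 monocyte and macrophage markers. Tnc was named after its values were seen.

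Of 12 target cytokines, 10 were tested (Il12b and Ifnb1 had too few counts), and 8 of 10 were higher in aspirin than in control (median 2.15) and 9 of 10 lower in aspirin plus hydrogel than in aspirin (median -2.51). In aspirin plus hydrogel against control 2 of 10 were higher (median -0.75), beside 0 of 6 tissue-derived ligands (median -1.68), 0 of 9 co-receptors and chaperones (median -0.28) and 1 of 10 brakes (median -0.35). Tnf was measured at 0.629, 0.393 and 0 CPM in aspirin plus hydrogel, at 4.05, 0.328 and 2.57 CPM in aspirin, and at 0.610, 0.268 and 0.320 CPM in control. Il6 was measured at 0, 0.272 and 0.0667 CPM in aspirin plus hydrogel, at 3.61, 0.0937 and 0.943 CPM in aspirin, and at 0.0924, 0.246 and 0.291 CPM in control. For both, Aspirin replicates 1 and 3 were high and Aspirin replicate 2 lay among the other groups. The fitted log2 fold change in aspirin plus hydrogel against aspirin was -2.73 ± 1.17 for Tnf and -3.77 ± 1.42 for Il6 (edgeR adjusted p of 0.454 and 0.453). Il1b and Cxcl2, named after their values were seen, were the only members of these lists that DESeq2 called in aspirin against control (adjusted p of 0.0346 and 0.0264). It called both in aspirin plus hydrogel against aspirin too (adjusted p of 5.17e-04 and 0.0497). The shares of all genes it called in these comparisons were 0.404% and 0.77%. Il1b stood at 0.968, 0.846 and 0.234 CPM in aspirin plus hydrogel, 28.0, 2.30 and 36.2 CPM in aspirin and 2.42, 0.134 and 2.41 CPM in control.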

How the data were processed

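RNA from leg muscles of 9 mice was made into libraries with a SMARTER mRNA kit from total RNA, per the labels' protocols. Raw counts per gene and FPKM, both for the same 55335 genes, were deposited by the authors; mm10 is named in the submitters' processing notes, and aligner, counting tool and strand setting were not given in the sources used here. Groups came from the treatment labels. Each sample also carries a code of unstated meaning, whose first number differs between groups. Within aspirin, replicate 3 carries another first number than the other libraries. Any batch the code marks and treatment therefore cannot be told apart. The members and lists were chosen with earlier results of these data known.

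Deposited counts of all 9 libraries were fitted in 1 model with edgeR 4.0.16 in R 4.3.3 (robust quasi-likelihood test, TMM scaling, filterByExpr with a minimum count of 10 and total of 15), with Benjamini-Hochberg adjustment over 18259 genes and a threshold of 0.05. CPM use TMM-scaled library sizes, SE were taken from the quasi-likelihood F; intervals cover 95%. At these depths 3 counts equal 0.0554 to 0.100 CPM, which covers counting error only. The common biological coefficient of variation was 0.503. Alternatives were DESeq2 1.42.0, RLE size factors or library size alone in edgeR, only the libraries of the groups compared, no filter, limma 3.58.1 on log2(FPKM + 1) and log2(FPKM + 0.1), a replicate block, and leaving out each library. For likeness, log2 CPM had a prior count of 1. The fit was tested on simulated data. All libraries were counted as separate samples, since any 2 of them differed by a chi-square of at least 78.2 per degree of freedom.

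Same-numbered aspirin and control libraries deviated together from their group means (correlations across genes of 0.539, 0.132 and 0.251). Libraries with different numbers were not correlated for comparison, so these values cannot show whether the mice were paired, and the labels give no pairing. Correlations involving aspirin plus hydrogel ran from -0.430 to 0.477. The block was fitted by replicate number in all 3 groups. Its values therefore assume a pairing that neither the labels nor these correlations established.

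Named genes were the 10 members, a preset part of each pathway list and preset defining markers (1 marker gene is not reported here and was left out of its list), plus, for likeness, the 3 nearest genes to each member and the 5 nearest to their mean, averaging at least 1 CPM. Gene coordinates are 1-based from GENCODE vM21, and promoter windows are from RefSeq. Figures were drawn with matplotlib 3.10.9.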

Additional observations from a re-analysis of the deposited data

How the results depend on the processing

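No member passed an adjusted p of 0.05 under any alternative run, the lowest being 0.0794 for Myd88 in aspirin plus hydrogel against aspirin with DESeq2. Of 420 alternative values of single members, 393 kept their direction and 27 turned. With DESeq2 the genes called numbered 82 in aspirin against control, 13 in aspirin plus hydrogel against control, 147 in aspirin plus hydrogel against aspirin and 129 for any difference, against 0 each by edgeR. With the replicate block the numbers were 0, 0, 1 and 0, the members higher in aspirin plus hydrogel against aspirin numbered 1 instead of 0 (Tlr7, at 0.10), and no member's call changed. Leaving out single libraries gave 0 to 1 genes called for any difference (1 without Aspirin replicate 2) and 0 to 2 in aspirin plus hydrogel against aspirin (2 without Aspirin replicate 3). Members higher then ranged from 7 to 10 in aspirin against control, 2 to 7 in aspirin plus hydrogel against control and 0 to 3 in aspirin plus hydrogel against aspirin. Library size scaling alone moved the median log2 fold change of all genes by 0.23 in aspirin against control, by -0.23 in aspirin plus hydrogel against control and by -0.46 in aspirin plus hydrogel against aspirin. Under it Tlr3 turned to 0.20 in aspirin against control and Tlr2 to -0.0068 in aspirin plus hydrogel against control. On FPKM with a pseudocount of 1 and of 0.1 these were 0.0893 and 0.18 for Tlr3, and -0.0324 and -0.0592 for Tlr2. The ranges without single libraries that crossed 0 were, in aspirin against control, -0.41 to 0.30 for Tlr3, -0.0747 to 1.51 for Tlr7 and -0.38 to 1.02 for Tlr9. In aspirin plus hydrogel against control they were -0.72 to 0.91 for Tlr1, -0.38 to 0.44 for Tlr2, -0.60 to 0.19 for Tlr3, -1.01 to 0.35 for Tlr9 and -0.61 to 0.31 for Ly96. Between aspirin plus hydrogel and aspirin they were -0.53 to 0.18 for Tlr3, -0.52 to 0.98 for Tlr7 and -1.41 to 0.0705 for Tlr9. The causes were not tested.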

Other observations

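Tlr4 had its lowest level in Control replicate 1. That library held 69 counts of Tlr4, at 1.28 CPM, while the other 8 libraries ran from 4.67 to 19.1 CPM. Per 1000 CPM of macrophage markers Tlr4 stood there at 1.33 CPM, and at 6.36 to 11.2 CPM in the other 8. In the same library its co-receptor gene Cd14 was at 9.13 CPM, within the range of the other controls, and Tlr2 was at 8.0 CPM. These values were picked out after they were seen and no test was made.

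Tlr5, the flagellin receptor, stood at 3.60, 5.98 and 6.71 CPM in aspirin plus hydrogel, at 2.04, 6.0 and 9.35 CPM in aspirin, and at 3.66, 4.31 and 5.85 CPM in control, lowest in Aspirin replicate 1, where 9 of the 10 members were highest. Its log2 fold change was 0.33 ± 0.51 in aspirin against control and -0.09 ± 0.51 in aspirin plus hydrogel against aspirin (edgeR adjusted p of 0.903 and 0.947). Tlr5 was chosen for description after its values were seen.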
